A study of Homo sapiens with 16 samples.

Results

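Transcript levels were compared between untreated HepG2 clones carrying 2 G alleles (GG) and clones carrying 1 G and 1 C allele (GC) at the I148M codon of PNPLA3. The comparison holds 6 of the 16 libraries of the study, and they were taken by their labels, not by any measured value. Clones GG1, GG2 and GG6 form the G/G group and clones GC2, GC3 and GC4 the G/C group, with 1 control library per clone (n = 3 for each genotype). HepG2 is a liver cancer cell line of hepatocyte type, and per the series title its derivatives were made by prime editing, a method that writes a chosen base into the genome. Of the other 10 libraries, 6 come from the same clones given 250 µM palmitic acid. The last 4 come from clones CC1 and CC3, labelled CC for 2 C alleles, with and without the acid. The treatment protocol gives 48 h for the acid, whereas the labels of single libraries count up from 48 to 50 h over the GG clones and from 51 to 53 h over the GC clones. All 6 libraries compared here share the HepG2 background and at least 1 G allele. The genotype before editing, the passage number and any control edit are not stated in the labels. How the clones were isolated is not given either. A genotype is therefore read only through 3 clones of 1 line. The p-values set a difference against the spread between the single libraries of these clones.

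PNPLA3 (patatin-like phospholipase domain containing 3, or adiponutrin) sits on the surface of lipid droplets and acts on triglycerides and retinyl esters. Its transcription in liver is driven by the lipogenic factors SREBP-1c and ChREBP. The I148M form resists degradation and gathers on droplets, and it is the best known common risk allele for fatty liver disease. Such a change of an amino acid need not alter transcription of the gene itself.

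The edited base lies in exon 3 of 9 of PNPLA3 (transcript ENST00000216180), at position 43928847 of chromosome 22 on the plus strand of GRCh38. The whole exon, chr22:43928824-43928889, is shown because the groups are defined by a single base in it. Capitals mark codon 148, in which the reference C gives isoleucine and G gives methionine (I148M).
PNPLA3 exon 3: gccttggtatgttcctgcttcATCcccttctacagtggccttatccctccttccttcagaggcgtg
The values are summed per gene, so they do not show which base a read carried, and the genotype labels were not checked here.

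Depth was 11544761 to 15034699 reads per library, and 15933 to 16206 genes had at least 1 read. Values are per-million units with the authors' scaling between libraries, called units below. All 26 hepatocyte genes listed were in the table, and their summed level was 18485 to 27838 units in GG and 23406 to 26965 in GC. Marker lists of other cells were lower, at 70.9 to 129.5 units against 65.3 to 97.9 for stellate cells, 333 to 442 against 307 to 387 for bile duct cells and 509 to 543 against 392 to 719 for macrophages. Nearly all of the macrophage sum was lysozyme, LYZ, with a mean of 530.4 units. Endothelial markers summed to 12.0 to 31.5 units in GG and 11.5 to 15.3 in GC, lymphocyte markers to 2.82 to 5.07 and 3.94 to 8.52, and markers of kidney lines to 110.7 to 194 and 160.0 to 305. The table held 9 of 13 stellate, 6 of 9 bile duct, 4 of 11 macrophage, 5 of 11 endothelial, 5 of 10 lymphocyte and 5 of 7 kidney markers, and 0 of those were at 0 in all 6 libraries. Ranges of GG and GC overlapped for every one of these lists. The samples were bulk cultures of clones of 1 line, and no cell types were counted. In them fewer cells with a transcript and less of it per cell cannot be told apart.

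PNPLA3 itself was expressed at a low level and was lower in the GG clones. It lay at 6.64, 4.67 and 3.47 units in GG1, GG2 and GG6 and 9.88, 11.2 and 6.52 in GC2, GC3 and GC4. The GG mean was 4.93 ± 1.60 units and the GC mean 9.19 ± 2.40 (SD, n = 3 each). GG1 stood just above GC4, so the groups overlapped by that 1 pair. Only 203 reads over the 3 GG libraries and 368 over the 3 GC libraries lay behind these values. The log2 difference, GG minus GC on the scale of log2(value + 0.5), was -0.84 ± 0.31 (SE), with a 95% interval of -1.56 to -0.13. It did not pass limma's test after Benjamini-Hochberg adjustment over the 13178 genes tested (adjusted p = 0.829). The CC clones lay at 13.3 and 1.99 units, outside the range of the 6 GG and GC clones on either side.

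Across the transcriptome no gene passed the threshold. With limma, 0 of 13178 genes (0%) had an adjusted p under 0.05, and the smallest adjusted p was 0.829. At an unadjusted p under 0.05 there were 704 genes (5.34%), of which 241 (1.83%) were higher in GG and 463 (3.51%) lower. That count was 1104 without GG1, 1214 without GG2, 417 without GC3 and 358 without GC4, while the count of adjusted calls was 0 in each case. In 1623 genes (12.3%) all 3 clones of one genotype lay above all 3 of the other, 786 of them (5.96%) higher and 837 (6.35%) lower in GG. On recovered reads edgeR's quasi-likelihood test also called 0 genes, with 715 at an unadjusted p under 0.05. DESeq2 called 21 (0.159%), 2 higher (0.0152%) and 19 lower (0.144%) in GG, and had 818 at an unadjusted p under 0.05. The values below are therefore descriptions of these 6 clones, and the genes named in them did not pass limma's test.

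Larger differences leaned towards lower levels in GG. Of the 11075 genes that reached a mean of 5 units in either group, 226 differed at least 2-fold between the group means of log2 values, 67 higher and 159 lower in GG. Among those 226, groups did not overlap in 12 of the higher and 72 of the lower genes. Over all 13178 tested genes, non-overlap was nearly balanced, with 786 (5.96%) higher and 837 (6.35%) lower. Genes picked for a 2-fold difference are by that choice more often apart. Clones were unequal in such departures. Among 10874 genes averaging 5 units or more, GG6 was at least 2-fold below the mean of the other 5 clones in 553 and above it in 290. These counts were 328 and 259 in GG2 and 122 and 65 in GG1. In GC2 they were 121 and 140, in GC3 35 and 51 and in GC4 149 and 220.

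**Figure D1:**
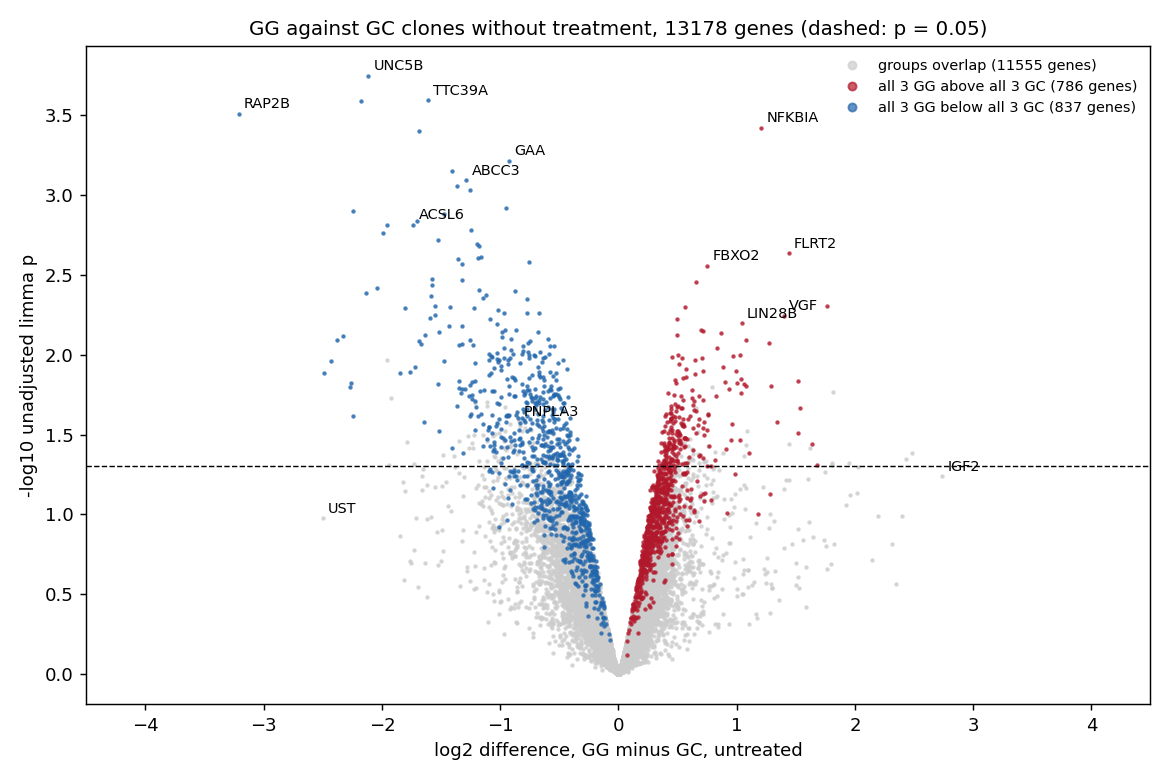
Unadjusted limma p (vertical, -log10) against the log2 difference between untreated GG and GC clones (horizontal) for 13178 genes, 1 point per gene, coloured where all 3 clones of a genotype lie on one side. Non-overlapping genes number 786 above and 837 below, the largest differences on the right belong to genes with overlapping groups such as IGF2, and no gene passed adjustment.

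Among genes higher in GG, the one with the smallest p was NFKBIA, which encodes IκBα, the inhibitor that holds NF-κB in the cytoplasm and is itself transcribed by NF-κB. It was measured at 67.7, 75.6 and 83.9 units in GG1, GG2 and GG6 and 41.3, 31.6 and 26.2 in GC2, GC3 and GC4. The 2 groups were well apart, and both CC clones, at 69.8 and 64.2 units, lay with the GG clones. The log2 difference was 1.21 ± 0.20 (SE) (adjusted p = 0.829 with limma and 0.00116 with DESeq2). NFKBIA lies at chromosome 14, 35401511 to 35404749, minus strand (GRCh38).

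The 250 bases before the NFKBIA start (RefSeq, GRCh38.p14, chr14:35404750-35404999, minus strand) are shown because this gene is the textbook NF-κB target. Capitals mark the 1 match to a narrow κB-type pattern (GGG, any 2 bases, then TTTCC), searched on both strands. Of 35116 RefSeq promoters of this length, 1.73% hold such a match. Looser forms of the κB motif were not searched.
NFKBIA promoter: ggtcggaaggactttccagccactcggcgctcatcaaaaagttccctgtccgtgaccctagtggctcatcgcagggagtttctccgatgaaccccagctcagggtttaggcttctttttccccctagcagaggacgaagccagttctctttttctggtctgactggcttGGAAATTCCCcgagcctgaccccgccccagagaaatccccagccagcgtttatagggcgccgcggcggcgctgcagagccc
Such a match describes the letters only, and no binding was measured. Of the 12 tested genes of NF-κB and the acute phase, NFKBIA and NFKB1 had GG values all above GC, against 5.96% of all genes. NFKB1, the precursor of the p50 subunit, lay at 46.8, 57.4 and 62.2 units in the GG clones and 44, 39.7 and 30.3 in the GC clones. RELA, the p65 subunit, differed by -0.06 ± 0.19 with overlapping groups, and TNFAIP3, a feedback inhibitor of the same pathway, by -0.17 ± 0.15.

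FLRT2, a membrane protein of cell adhesion and axon guidance (chromosome 14, 85530144 to 85654426, plus strand), had the largest difference among the 12 higher genes. Its levels were 43.6, 20.4 and 32.1 units in the GG clones and 8.95, 15.4 and 9.58 in the GC clones. No value overlapped, although GG2 and GC3 came close, and the difference was 1.44 ± 0.32 (DESeq2 adjusted p = 0.0244). The CC clones were at 66.9 and 27.1 units. LIN28B, which blocks maturation of let-7 microRNAs and is expressed in fetal liver and liver cancer, was at 210.2, 114 and 179 units in the GG clones and 74.1, 106 and 61.8 in the GC clones. Its difference was 1.04 ± 0.28, with GG2 near GC3, and the CC clones lay among the GC values, at 91 and 78.1 units.

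The remaining genes of the higher set differed less. BCL2L1, which encodes the survival protein BCL-XL, was tight within groups, at 334, 309 and 365 units in the GG clones and 241, 236 and 204 in the GC clones, a difference of 0.57 ± 0.15. ATP1B3, a β subunit of the sodium pump, differed by 0.65 ± 0.16, and FBXO2, an F-box protein that binds glycoproteins for degradation, by 0.75 ± 0.17. FOXP4, a forkhead transcription factor, differed by 0.50 ± 0.13. IDH3B, a subunit of the mitochondrial isocitrate dehydrogenase of the citric acid cycle, differed by 0.49 ± 0.14. For VGF, a secreted neuroendocrine peptide precursor, the difference was 1.40 ± 0.37, with CC1 and CC3 at 2.47 and 31.8 units, below and above all 6 clones. DDX39A, an RNA helicase, differed by 0.70 ± 0.19, KLHL14 by 0.87 ± 0.24 and PTMS, parathymosin, by 0.71 ± 0.20. All 12 had GG clones wholly above GC clones, which is how the set was picked.

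**Figure D2:**
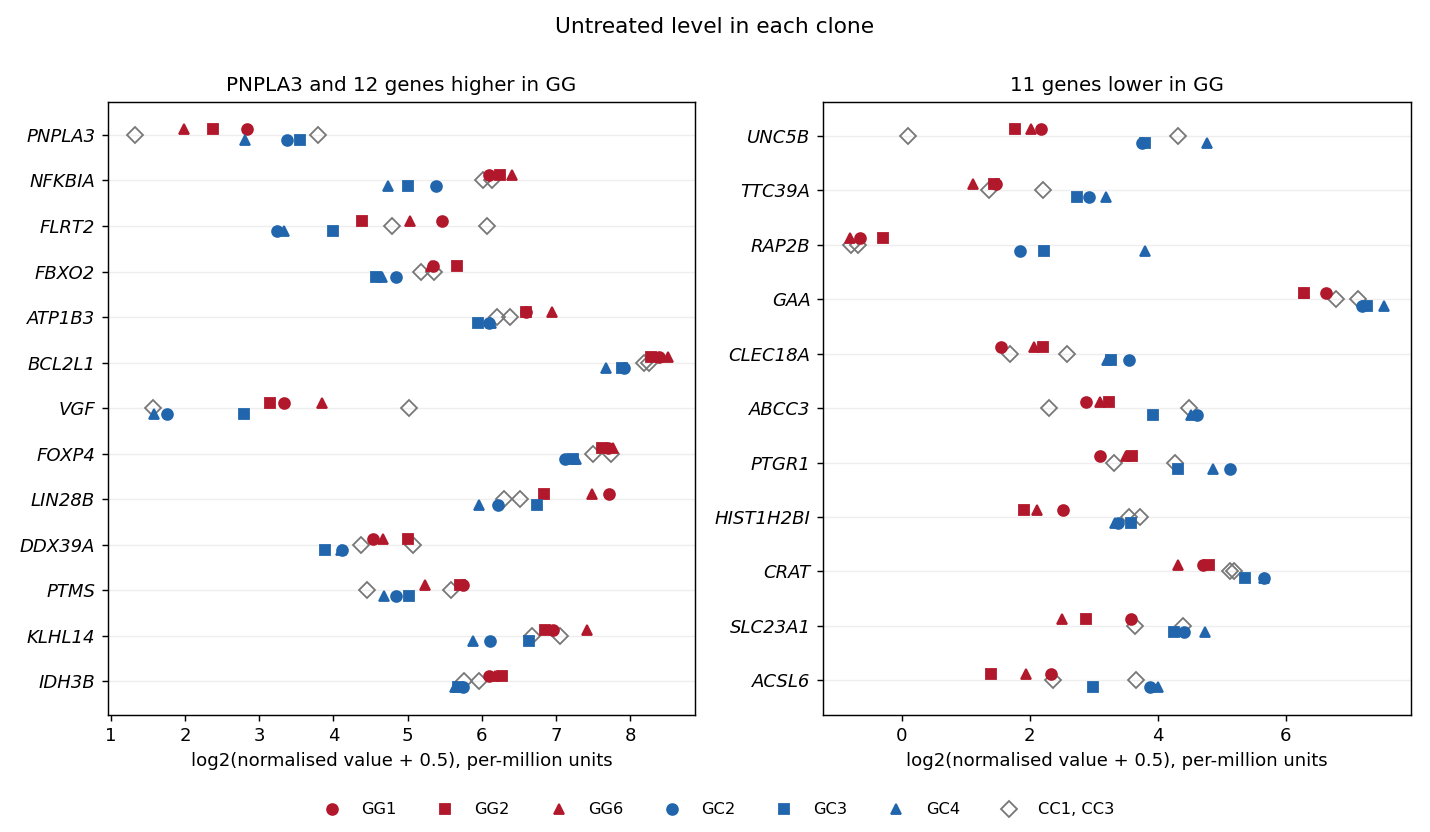
Untreated level of PNPLA3 and the 23 genes of smallest p whose GG and GC clones do not overlap, on a log2(value + 0.5) axis, 1 symbol per clone (red GG, blue GC, open diamonds CC). PNPLA3 overlaps at GG1 and GC4, NFKBIA in both CC clones sits with GG, and RAP2B in all 5 GG and CC clones lies at 0.317 units or lower.

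On the lower side the smallest limma p belonged to UNC5B, a receptor for netrin-1 in vessel and axon guidance (chromosome 10, 71212570 to 71302864, plus strand). It was at 4.01, 2.93 and 3.55 units in GG1, GG2 and GG6 and 13, 13.4 and 26.9 in GC2, GC3 and GC4. The lowest GC clone was far above the highest GG clone, and the difference was -2.12 ± 0.32 (adjusted p = 0.829 with limma and 1.93e-05 with DESeq2). CC1 had 0.569 and CC3 19.5 units, one below all GG clones and one within the GC range.

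RAP2B, a small GTPase of the Ras family, was close to silent outside the GC clones. Its levels were 0.138, 0.317 and 0.0724 units in the GG clones and 3.12, 4.20 and 13.4 in the GC clones, from 7 reads in all over the GG libraries and 268 over the GC libraries. Both CC clones were as low as GG, at 0.127 and 0.0798 units, and GC4 was well above its 2 group mates. The log2 difference was -3.21 ± 0.52 with limma (adjusted p = 0.829) and ran from -1.86 with a pseudocount of 2 to -5.32 in DESeq2, so its size depends on how values near 0 are handled.

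Because this gene was nearly off in 5 clones and on in 3, the 250 bases before its start (RefSeq, GRCh38.p14, chr3:153161976-153162225, plus strand) are given with CG dinucleotides in capitals. It holds 27 of them, more than 82.3% of the 35116 promoters, whose median is 11, and no match to the narrow κB-type pattern used above.
RAP2B promoter: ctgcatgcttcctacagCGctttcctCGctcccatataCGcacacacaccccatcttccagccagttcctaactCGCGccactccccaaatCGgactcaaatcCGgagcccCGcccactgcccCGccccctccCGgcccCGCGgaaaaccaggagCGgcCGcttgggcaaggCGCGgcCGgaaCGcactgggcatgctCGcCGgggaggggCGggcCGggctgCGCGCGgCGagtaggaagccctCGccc
DNA methylation was not measured in these samples. RAP2B lies at chromosome 3, 153162270 to 153170620, plus strand (GRCh38).

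Several other genes of the lower set take part in metabolism and transport. GAA, the lysosomal enzyme that breaks down glycogen, was the most abundant of them, at 98.3, 77.9 and 77.9 units in the GG clones and 145, 154 and 185 in the GC clones, a difference of -0.93 ± 0.17. CRAT, carnitine acetyltransferase, which buffers acetyl-CoA in mitochondria and peroxisomes, was at 25.6, 27.5 and 19.5 units in the GG clones and 50.1, 40.6 and 50.1 in the GC clones (-0.95 ± 0.19). Neither gene overlapped between groups. ACSL6, a long-chain acyl-CoA synthetase, was at 4.57, 2.14 and 3.33 units in the GG clones and 14.3, 7.42 and 15.6 in the GC clones (-1.73 ± 0.36). ABCC3, which exports conjugated bile acids and glucuronides across the basolateral membrane, was at 6.85, 8.95 and 8.03 units in the GG clones and 24.1, 14.7 and 22.5 in the GC clones (-1.29 ± 0.24). In ABCC3 the CC clones were split between the groups, at 4.43 and 21.9 units. PTGR1, a reductase of prostaglandins and lipid aldehydes, differed by -1.36 ± 0.26, and SLC23A1, a vitamin C transporter, by -1.47 ± 0.30.

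TTC39A differed by -1.61 ± 0.25 and the histone gene HIST1H2BI by -1.25 ± 0.24. CLEC18A, a C-type lectin, differed by -1.40 ± 0.26, but it has near-identical copies between which reads could be split, so its level is uncertain. DESeq2 called the 11 genes named from this set, and NFKBIA and FLRT2 of the higher set. Its other calls included CYP24A1 and IFI27, described with their lists, and MROH2A, OGFRL1, PER3, PTGFRN and SNORD3A, which are named here only because DESeq2 called them. All 21 were apart between the groups. In limma every one of them stayed short of the threshold.

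Some of the largest mean differences were in genes whose groups overlapped, and in several of these 1 clone stood far from its group. IGF2, a fetal growth factor expressed from one parental allele, was at 243, 131 and 250.3 units in GG1, GG2 and GG6 and 2.79, 51.4 and 159 in GC2, GC3 and GC4, so GC4 overlapped GG and GC2 was nearly devoid of it. The mean log2 difference was 2.74 ± 1.23, and 1.14 without GC2. EREG, an EGF receptor ligand, was at 0.623, 13 and 14 units in the GG clones and 1.69, 0.657 and 0 in the GC clones, with GG1 inside the GC range. UST, a sulfotransferase of chondroitin and dermatan sulfate, was at 10.9, 1.43 and 0 units in the GG clones and 10.9, 2.17 and 64.8 in the GC clones, where GC4 alone was high. CKB, brain-type creatine kinase, was at 7.96, 1.43 and 1.52 units in the GG clones and 7.68, 8.73 and 23.3 in the GC clones, BRSK2 at 2.63, 0.396 and 0.796 units in the GG clones and 1.86, 3.55 and 21 in the GC clones and SIGLEC11 at 7.47, 1.90 and 1.37 units in the GG clones and 19.6, 7.03 and 13.5 in the GC clones. In CKB and BRSK2, too, GC4 was the highest clone. HBE1 differed by 2.40 ± 1.29 and the read-through transcript SPECC1L-ADORA2A, whose reads cannot be told from those of the genes it joins, by 2.44 ± 1.02. The direction of 2 of these genes turned when each library was given its own weight, to -0.49 for HBE1 and, from -2.50 ± 1.36, to 0.78 for UST.

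With all 6 clones, the lists for lipid metabolism described here had medians below 0, with no member past the threshold in any of them, and single clones moved these medians. For each list the count of members with groups apart is read against 5.96% of all genes higher and 6.35% lower, and all tested genes had a median of -0.00. The 19 apolipoprotein and lipoprotein assembly genes had a median log2 difference of -0.35, with 89.5% of them lower in GG, and 3 were apart lower and 0 higher. APOC1 was at 73.9, 88.2 and 70.2 units in the GG clones and 125, 113 and 102 in the GC clones (-0.55 ± 0.16), and APOB, the structural protein of very low density lipoprotein and one of the most abundant transcripts, at 15005, 14799 and 9553 units in the GG clones and 17626, 16592 and 21428 in the GC clones (-0.52 ± 0.27). TM6SF2, needed for lipidation of these particles, was low, at 1.18, 1.19 and 1.23 units in the GG clones and 1.86, 1.64 and 2.01 in the GC clones (-0.46 ± 0.28). The median of the list was -0.15 without GG6 and -0.64 without GG2.

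Cholesterol synthesis and uptake genes showed the same lean: of 24 tested, 83.3% were lower in GG, the median was -0.27, and 4 were apart lower and 0 higher. DHCR7, the last enzyme of cholesterol synthesis by one of its routes, was at 95.2, 103 and 58.3 units in the GG clones and 137, 120.0 and 131 in the GC clones (-0.63 ± 0.23), and SREBF2, the transcription factor of the pathway, at 236, 225 and 192 units in the GG clones and 248, 282 and 381 in the GC clones (-0.46 ± 0.19). Clone GG6 was the lowest of the 6 in this list, with a median deviation of -0.46 from the mean of the 6, and the median difference was -0.10 without GG6 and -0.42 without GG2.

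Of 20 genes of fatty acid synthesis and desaturation, 80% were lower in GG, with a median of -0.20, 3 apart lower and 0 higher. ELOVL6, which elongates C16 fatty acids, was at 36.5, 28 and 37.3 units in the GG clones and 48.6, 51.1 and 54.1 in the GC clones (-0.60 ± 0.17). MLXIPL, which encodes the glucose-sensing factor ChREBP, was at 113, 66 and 84.4 units in the GG clones and 123, 131 and 141 in the GC clones (-0.61 ± 0.21). FASN, fatty acid synthase, was at 1219, 919 and 1022 units in the GG clones and 1285, 1476 and 1427 in the GC clones (-0.41 ± 0.17). All 3 GG clones were below all 3 GC clones in each of these, while SREBF1, which encodes SREBP-1c, had overlapping groups and a difference of -0.00 ± 0.30. SCD, the main desaturase, differed by -0.38 ± 0.30, with GG1 among the GC clones. The median was -0.10 without GC3, -0.12 without GG2, -0.31 without GC2 and -0.34 without GG1.

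On the droplet itself the members went different ways. PLIN5, a perilipin that ties droplets to mitochondria, was at 2.35, 0.871 and 0.796 units in the GG clones and 4.05, 3.68 and 4.67 in the GC clones (-1.43 ± 0.37), low in all clones but separate between groups. PLIN4 was at 9.06, 8.95 and 10.4 units in the GG clones and 17.4, 10.7 and 12.2 in the GC clones (-0.45 ± 0.23), also apart. PLIN2, the main coat protein of hepatocyte droplets, was higher in GG on average (0.56 ± 0.25), at 182, 229 and 361 units in the GG clones and 158, 160.4 and 184 in the GC clones, with GG6 at the top and GG1 below GC4. The 22 tested genes of droplets and triglyceride enzymes had a median of -0.02, with 3 apart lower and 0 higher. That median turned to 0.0054 without GG2 and 0.05 without GG6 and to 0.05 among genes averaging 5 units or more, and lay at -0.10 without GC2, -0.09 without GC3, -0.06 without GC4 and -0.08 without GG1. PNPLA2, the major triglyceride lipase, differed by -0.08 ± 0.18, and the 7 patatin-like lipases had a median of -0.24, -0.14 without GG2 and -0.08 among genes averaging 5 units or more. DGAT1 and DGAT2, which make triglyceride, differed by 0.09 ± 0.24 and -0.33 ± 0.33, both with overlap.

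Fatty acid oxidation and ketone genes had a median of -0.18 over 23 tested, with 4 apart lower and 0 higher, and the median was -0.10 without GG1 and -0.12 without GG6. CPT2, the inner carnitine palmitoyltransferase, was at 18.1, 20.7 and 14.5 units in the GG clones and 26, 24.9 and 22.5 in the GC clones (-0.47 ± 0.19). EHHADH, the peroxisomal bifunctional enzyme, overlapped and differed by -0.74 ± 0.32. CPT1A, the entry step, pointed the other way (0.67 ± 0.50), from one high clone in each group. PPARA, the transcription factor of the programme, differed by -0.43 ± 0.25. Among 14 genes of fatty liver loci the median was -0.23, with 2 apart lower, GCKR and TM6SF2, and it was -0.10 without GG6, -0.14 without GC2 and -0.14 without GG2. GCKR, the inhibitor of glucokinase, was at 11.5, 12.8 and 7.31 units in the GG clones and 25.4, 15.4 and 22 in the GC clones (-0.97 ± 0.28), with the CC clones below the GC clones at 5.82 and 9.89 units.

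The p53 targets had the highest median of the 34 functional lists. Over 21 tested genes it was 0.37, 19% were lower in GG, and 4 were apart higher and 0 lower, with 0 past the threshold. TIGAR, which lowers glycolytic flux, was at 28.2, 52.8 and 48.9 units in the GG clones and 27.7, 19.7 and 17.2 in the GC clones (0.97 ± 0.29). MDM2, the ubiquitin ligase that degrades p53, was at 413, 378 and 684 units in the GG clones and 309, 284 and 308 in the GC clones (0.66 ± 0.23), and CDKN1A, the cell cycle inhibitor p21, at 119, 112 and 140.2 units in the GG clones and 97, 79.1 and 96.3 in the GC clones (0.44 ± 0.16). TNFRSF10B, a death receptor, was the fourth, at 319.6, 328 and 544 units in the GG clones and 266, 294 and 318 in the GC clones. BAX and BBC3, which promote cell death, differed by 0.07 ± 0.19 and 0.06 ± 0.23 with overlap. GG2 had the highest median deviation in this list, 0.52, GG6 had 0.21 and GG1 -0.07, as did GC4. Without GG2 the median was 0.23 and without GC3 0.26.

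Of 23 tested antioxidant targets of NRF2, 87.0% were lower in GG, with a median of -0.22, and 1 was apart higher and 2 lower. The median was -0.06 without GC4, -0.39 without GG6 and -0.45 without GC2. HMOX1, heme oxygenase 1, was at 182, 175 and 261 units in the GG clones and 100.2, 152 and 123 in the GC clones (0.71 ± 0.22). ABCC3 is among the lower members. NQO1, the usual marker of the programme, overlapped and differed by -0.25 ± 0.20. In GC4 the list had a median deviation of 0.53 and in GG2 of -0.47, so each group had 1 clone far from its mates.

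Hepatocyte functions other than lipid handling gave mixed values. Over the 25 tested hepatocyte genes the median was -0.08, with 3 apart lower and 0 higher. Its sign rested on single clones, at 0.02 without GC4 and 0.0049 without GG1, and it lay at -0.22 without GG2, -0.12 without GC2 and -0.11 without GG6. KNG1, kininogen, was at 17.4, 5.39 and 9.62 units in the GG clones and 19.2, 37.9 and 158 in the GC clones (-2.27 ± 0.74), where GC4 was far above the rest. CPS1, the first enzyme of the urea cycle, was at 69, 51.9 and 46.3 units in the GG clones and 78, 82.6 and 80.0 in the GC clones (-0.54 ± 0.18), and TFR2, the hepatocyte iron sensor, at 72.6, 99.7 and 54.6 units in the GG clones and 103, 110.0 and 133 in the GC clones (-0.64 ± 0.23). ALB, albumin, had overlapping groups and its lowest value in GC2, at 174, 807 and 213 units in the GG clones and 17.7, 221 and 328 in the GC clones. Amino acid catabolism and the urea cycle had a median of -0.34 over 24 genes, with 2 apart lower, and -0.18 without GC4. Hepatocyte transcription factors had a median of -0.00 over 22 genes, 0.13 without GC4, 0.10 without GG2 and -0.08 without GC2, and 0 were apart.

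Of 17 tested cytochromes P450 and conjugating enzymes, 2 were apart higher and 3 lower, and the median of -0.19 turned to 0.28 without GC4 and was -0.45 without GC2 and -0.07 without GG1. CYP24A1, the vitamin D 24-hydroxylase, was at 9.34, 9.58 and 10.2 units in the GG clones and 23.3, 15.8 and 31.2 in the GC clones (-1.18 ± 0.26; DESeq2 adjusted p = 0.0327), while CC1 and CC3 lay at 1.20 and 60.9 units. FMO5, a flavin monooxygenase, was at 58.3, 39.2 and 70.7 units in the GG clones and 233, 119 and 73.2 in the GC clones (-1.21 ± 0.41). UGT2A3, a glucuronosyltransferase, was higher in GG at 9.62, 35.2 and 11.2 units in the GG clones and 8.27, 5.78 and 4.27 in the GC clones (1.34 ± 0.49), most of all in GG2. Among glycolytic genes PKM, pyruvate kinase M, was higher in all GG clones, at 438, 584 and 517 units in the GG clones and 359, 385 and 359 in the GC clones (0.47 ± 0.16), and PFKL, liver phosphofructokinase, lower, at 111, 91.3 and 70.8 units in the GG clones and 143, 156 and 120.4 in the GC clones (-0.64 ± 0.20). The 26 glycolysis genes had a median of 0.16, with 1 apart in each direction, and the median was 0.0077 without GG6 and 0.07 without GC4.

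Outside metabolism, most lists had 1 to 5 members apart, while the lists of ATF4 and CHOP targets, of ER chaperones and of hepatocyte transcription factors had 0. Interferon-stimulated genes had 3 of 24 apart higher and 2 lower, with a median of -0.07 that was 0.0016 without GG2, -0.0046 without GC3, -0.0084 without GG6 and -0.02 without GC4. IFI27 was at 0.208, 0.792 and 0.724 units in the GG clones and 5.82, 2.89 and 2.58 in the GC clones (-1.96 ± 0.41; DESeq2 adjusted p = 0.0433), low in all clones. The respiratory chain, with 35 nuclear genes tested, had 3 apart higher and 6 lower and a median of 0.01, which was 0.03 without GC3, 0.03 without GG1 and 0.04 without GC4. UQCRC2 and UQCRB, subunits of the same complex III, were apart in opposite directions, at -0.34 ± 0.14 and 0.30 ± 0.14. The 34 ribosomal protein genes had a median of -0.10 with 1 apart lower, -0.03 without GC4 and -0.21 without GC2. AJUBA, a LIM protein of the YAP pathway, was at 231, 226 and 294 units in the GG clones and 188, 183 and 123 in the GC clones (0.62 ± 0.21), and SLC39A14, a zinc and manganese importer, at 2007, 2285 and 2135 units in the GG clones and 1471, 1581 and 1456 in the GC clones (0.51 ± 0.15). CD44, an adhesion receptor, was at 5.67, 8.40 and 10.9 units in the GG clones and 3.38, 4.86 and 3.06 in the GC clones (1.03 ± 0.30), and CCND1, cyclin D1, at 112, 148 and 156 units in the GG clones and 103, 106 and 97.1 in the GC clones (0.43 ± 0.17).

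Near PNPLA3 on chromosome 22, the 9 tested neighbours had a median of -0.24, with 1 apart in each direction. TTLL1 was at 2.84, 1.82 and 1.66 units in the GG clones and 4.30, 3.22 and 4.35 in the GC clones (-0.79 ± 0.29), and NUP50, a nuclear pore protein, at 132, 158 and 189 units in the GG clones and 115, 121 and 126 in the GC clones (0.39 ± 0.17). The mismatch repair and editing genes, 12 tested, had 2 apart higher, among them MLH3 (0.24 ± 0.16), and a median of 0.01 that was 0.23 without GG6, 0.08 without GC3, -0.04 without GC4 and -0.12 without GG2.

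In several functional lists the GG clones lay far from each other, most of all in the stress response and cell cycle lists. Median deviations also differed for apolipoproteins (0.21 in GG2, -0.59 in GG6) and matrix and TGF-beta genes (0.29 in GG1, -0.49 in GG2). The same held for Wnt targets (-0.36 in GG2, 0.39 in GG6) and epithelial genes (-0.28 in GG1, 0.43 in GG2). In the epithelial list the GC clones lay as far from each other, at 0.46 in GC2 and -0.28 in GC4. The 24 genes of the ATF4 and CHOP stress response had a median difference of only 0.07, but a median deviation of 1.18 in GG6 against -0.60 in GG2 and -0.31 in GG1. GG6 was the highest of the 6 clones in 21 of the 24 genes, whereas it was the highest in 27.4% of all tested genes. PSAT1, an enzyme of serine synthesis, was at 298, 206 and 1107 units in the GG clones and 347, 401 and 420.2 in the GC clones, ASNS, asparagine synthetase, at 85.7, 46.5 and 438 units in the GG clones and 122, 131 and 181 in the GC clones, and SLC7A11, the cystine importer, at 240.1, 133 and 924 units in the GG clones and 279.7, 347 and 261 in the GC clones; these 3 genes were chosen after their values were seen. ATF4 itself was at 528, 579 and 589 units in the GG clones and 442, 544 and 452 in the GC clones. The median of the list was -0.45 without GG6, -0.00083 without GC2, 0.13 without GC4, 0.27 without GG1 and 0.47 without GG2.

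The 32 cell cycle genes had a median difference of -0.06, with GG2 at a median deviation of 0.49 and GG6 at -0.56. GG6 was the lowest clone in 27 of the 32 genes and GG2 the highest in 23, against 27.6% and 22.2% of all tested genes. MKI67, a marker of cycling cells picked after its values were seen, was at 256, 215 and 53 units in the GG clones and 184, 259 and 221 in the GC clones. The median was 0.29 without GG6, 0.06 without GC3, -0.04 without GC4, -0.12 without GC2 and -0.29 without GG2. In the treated libraries the same clones stood apart in the same direction: GG6 was the lowest in 31 of 32 cell cycle genes and the highest in 18 of 24 stress response genes.

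The same 6 clones were also sequenced after palmitic acid, a saturated fatty acid that loads liver cells with lipid, and this gives a second library of each clone, not further clones. By the hours on the labels the GG clones had the shorter treatment, so genotype and those hours cannot be told apart in the treated libraries. Under the acid, limma again called 0 genes (0%), with 652 (4.95%) at an unadjusted p under 0.05, 254 of them (1.93%) higher and 398 (3.02%) lower in GG. Groups were apart in 1572 genes (11.9%), 804 (6.1%) higher and 768 (5.83%) lower. Of the 786 genes apart higher in GG without treatment, 333 (42.4%) were apart higher with it, which is 41.4% of the treated ones. Of the 837 lower genes, 333 (39.8%) were apart lower again, or 43.4% of the treated ones. The difference kept its sign in 740 (94.1%) of the higher and 798 (95.3%) of the lower genes. Since the clones are shared, these counts are not independent of the untreated values. The share of all tested genes that kept their sign is not given here. The counts of kept signs, here and below, therefore have no background to be read against.

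Among the 23 genes named for the smallest p with groups apart, all 23 kept their sign under the acid, and 8 of the 12 higher and 10 of the 11 lower genes were apart again. Of 50 other genes with groups apart that the naming rules picked, 47 kept their sign, and UQCRC2, UQCRB and PHLDA2, an imprinted gene, turned to 0.02, -0.03 and -0.13. RAP2B was at 0.0784, 0.297 and 0.274 units in the GG clones and 2.93, 3.93 and 16 in the GC clones with the acid, a log2 difference of -3.15. NFKBIA was at 72.1, 64.6 and 87.3 units in the GG clones and 58.1, 35.2 and 25.3 in the GC clones (0.98), and FLRT2 differed by 2.11. PNPLA3 was at 8.39, 3.94 and 3.56 units in the GG clones and 13.1, 9.55 and 9.29 in the GC clones, now without overlap, and the difference was -1.02 ± 0.34 (SE; adjusted p = 0.88 with limma). Among the 23, PTMS and VGF narrowed to 0.02 and 0.39. Outside them CYP24A1 went to -0.0071 and SPECC1L-ADORA2A to 0.0056, both close to 0. A direct test of whether palmitic acid moved GG and GC clones differently, on each clone's own change, called 0 genes (0%), with 426 (3.23%) at an unadjusted p under 0.05, 206 (1.56%) upward and 220 (1.67%) downward in GG relative to GC. In it PTMS had a difference of -0.69 ± 0.22 (SE; adjusted p = 0.998 with limma), and PNPLA3 of -0.18 ± 0.24 (adjusted p = 0.998).

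Per degree of freedom, variation between the genotypes was close in size to that within them. Of the sum of squares over the 13178 genes, 21.2% lay between GG and GC on 1 degree of freedom, 51.0% within GG and 27.8% within GC, on 4 degrees of freedom together, or 19.7% for each of the 4. With 1 untreated library per clone, the part within a genotype also holds the noise between libraries. The median SE of a gene's log2 difference was 0.232 and the median absolute difference 0.195. The 2 most alike libraries, GG1 and GC3, belonged to different genotypes (root mean square log2 distance 0.378, Pearson r = 0.984 across genes, which are not independent replicates). GG2 and GG6, of one genotype, were the least alike at 0.834. Among 10874 genes averaging 5 units or more, 843 differed at least 2-fold from the mean of the other 5 clones in GG6 and 587 in GG2, against 187 in GG1. The counts were 261 in GC2, 86 in GC3 and 369 in GC4. Without GG1 and GC3 limma still called 0 genes.

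In some clones the median level over the genes of a chromosome was shifted. Positions within a chromosome were not examined. Between genotypes the chromosome medians of the log2 difference were small, from -0.09 on chromosome 22 to 0.12 on chromosomes 14 and 20. Single clones deviated more. On chromosome 13, 82.1% of the 212 tested genes were lower in GG2 than the mean of the other 5 clones, with a median of -0.30, and on chromosome 21 it was 80% of 125 genes with a median of -0.32. GC4 had 76.0% of 505 genes lower on chromosome 10 (median -0.26) and 70.1% of 421 lower on chromosome 14 (-0.19). On chromosome 11 only 21.3% of 727 genes were lower in GC4 and the median was 0.26. Over all genes these shares were 49.4% in GG2 and 50.8% in GC4. Treated libraries of these clones gave near the same values, with -0.29 and -0.36 in GG2 on chromosomes 13 and 21 and -0.25 and 0.29 in GC4 on chromosomes 10 and 11.

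**Figure D3:**
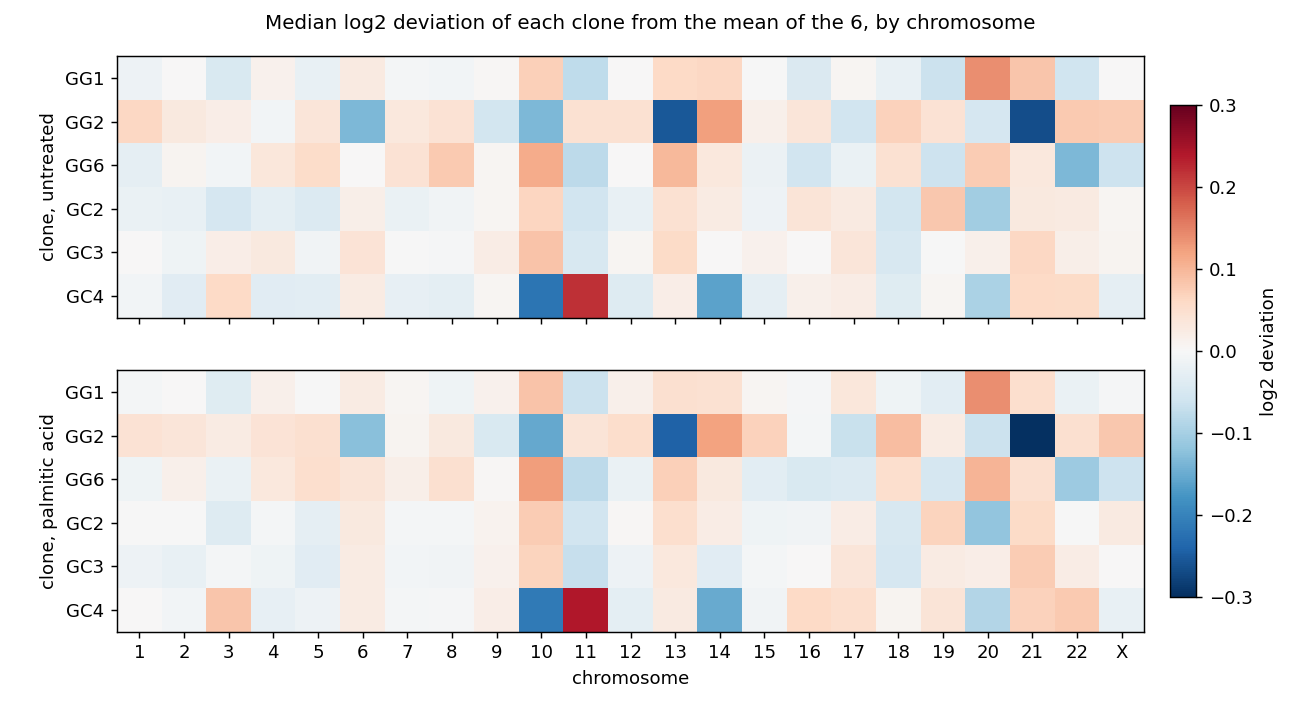
Median log2 deviation of each clone from the mean of the 6 clones (colour, log2) for the tested genes of each chromosome, untreated above and with palmitic acid below. GG2 is low on chromosomes 13 and 21, and GC4 is low on 10 and 14 and high on 11, in both sets of libraries.

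Some named genes lie on chromosomes with such shifts. UNC5B lies on chromosome 10, NFKBIA and FLRT2 lie on chromosome 14 and IGF2 on chromosome 11. UNC5B was highest in GC4, at 26.9 units, whereas the chromosome 10 median was low in that clone. GG2, with the lowest UNC5B at 2.93 units, also had a low chromosome 10 median (-0.16 against the other 5 clones). In GG6, at 3.55 units, that median was high (0.13). NFKBIA was lowest in GC4, at 26.2 units, and FLRT2 was low there too, at 9.58 units, as was the chromosome 14 median. GC4 had the highest IGF2 of the GC clones, at 159 units, and a high chromosome 11 median. CYP24A1, which was lower in GG and highest in GC4 of the 6 clones, lies on chromosome 20. So do BCL2L1 and IDH3B of the higher set. On that chromosome 51 of 367 genes (13.9%) were apart higher in GG, against 5.96% of all genes. There GG1 had the highest median deviation from the 6 clones, 0.14, and GC2 and GC4 the lowest, both -0.10. On chromosome 14, 45 of 421 genes (10.7%) were apart higher and 10 (2.38%) lower. GAA and ABCC3 lie on chromosome 17, where 84 of 818 genes (10.3%) were apart lower and 32 (3.91%) higher. Over all genes 6.35% were apart lower. Without GC4 the difference was -1.79 for UNC5B, 1.05 for NFKBIA, 1.35 for FLRT2, 0.49 for BCL2L1 and 0.47 for IDH3B. The signs were those found with all 6 clones. However, this fit keeps GG1 and GC2, which also deviated on chromosome 20, and GG2 and GG6, which deviated on chromosome 10. It therefore cannot decide whether the shifts enter these differences. On chromosome 14 the median difference over genes was 0.12 with all clones and 0.06 without GC4, and on chromosome 21 it was -0.08 with all clones and -0.01 without GG2. DNA copy number was not measured, and its part in these values was not tested.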

How the data were processed

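RNA was sequenced from rRNA-depleted, stranded libraries of HepG2 clones. Per the submitters' processing notes, reads were handled with Trimmomatic 0.38, Bowtie2, RSEM 1.3.0 and edgeR on hg38; neither the annotation nor the strand setting is given in the sources used here. The authors deposited a normalised signal for 16558 genes. All values were whole multiples of 1 step per library (100% within 0.01 reads), so read counts were recovered; column totals were 961492 to 1052700. The design had assumed normalised values, and the count tests served as alternatives.

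Genes averaging 1 unit or more over the 6 libraries, 13178 in number, were tested with limma 3.58.1 (R 4.3.3) with a mean-variance trend on log2(value + 0.5), two-sided, with Benjamini-Hochberg adjustment at 0.05. GG and GC each had 3 clones, leaving 4 residual degrees of freedom. Fold changes on this scale understate those of low genes. edgeR 4.0.16 and DESeq2 1.42.0 were run on recovered reads. Scripts were tested on simulated data. No interval or floor here covers more than the spread between clones.

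Clones were paired with their own treated library by name for the change under palmitic acid; GG and GC clones are not paired with each other, and shared numbers (clone 2) come from separate clones. A fit of all 16 libraries with the clone as block had a clone correlation of 0.741.

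Named genes were PNPLA3, the 12 each way with the smallest p among genes with groups apart, 5 units or more on average in either group and an ordinary symbol, the 4 each way with the largest difference among overlapping genes, up to 3 members of each list by p, and the 5 most abundant genes; some genes that these rules pick are not reported here. A gene is apart when all clones of one group exceed all of the other. Lists held 840 symbols, of which the table has 754 (4 by a synonym). The members, lists and rules were chosen with earlier results of these data known. Positions are from GENCODE 29 (GRCh38), which placed 95.6% of genes. Results by number of members are described without set tests.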

Additional observations from a re-analysis of the deposited data

How the results depend on the processing

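With 3 clones per genotype the median SE of a log2 difference was 0.232, and low genes also rest on few reads, such as the 7 reads of RAP2B over the GG libraries. The count of genes past the adjusted threshold was 0 under each limma alternative, with edgeR and in each fit leaving out 1 clone, and 21 with DESeq2, of which 4 were list members (ABCC3, CYP24A1, IFI27 and NFKBIA). The PNPLA3 difference stayed negative and short of the threshold in all of them, from -0.64 without GG6 to -1.06 without GG1. In the fit of all 16 libraries with the clone as replicate block, 0 genes passed, 773 had an unadjusted p under 0.05, and the PNPLA3 difference was -0.84. Weighting each library gave 1558 genes at an unadjusted p under 0.05. Leaving out both GG1 and GC3, chosen after seeing the data, gave 498. No list median could be given at a mean of at least 5 units where no member reached it.

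Of 2779 values of named genes under alternatives, 26 in 13 genes changed sign, most of them in marker or highly abundant genes whose difference was near 0. Leaving out 1 clone at a time gave -0.23 to 0.27 for EPCAM (-0.01 in the full fit), -0.55 to 0.13 for FN1, -1.23 to 1.64 for KRT19, -1.53 to 0.28 for PECAM1, -0.0745 to 0.0363 for EEF1A1, -0.11 to 0.22 for SOX9, -0.61 to 0.34 for AFP, -0.30 to 0.16 for LYZ and -0.51 to 0.28 for CD68. Without both GG1 and GC3, EPCAM was at 0.0915 and LYZ at 0.00109. Quantile normalization gave 0.17 for FN1, 0.0874 for EEF1A1 and 0.0627 for AFP. Library weights gave 0.00347 for EEF1A1, -0.0422 for SOX9, -0.49 for HBE1, 0.78 for UST, 0.15 for CUBN and -0.0462 for RN7SK. The cause of these reversals was not tested.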
